A study of Mus musculus with 3 samples.

Results

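Alg9 and 8 other genes of N-glycan assembly (Alg1, Alg2, Alg3, Alg5, Alg6, Alg8, Alg11 and Alg12) were examined for peaks of the zinc finger protein ZFP410 in mouse brown preadipocytes. The set is 9 of 21887 genes, counting those that code for protein and lie on a placed chromosome. It was chosen by the rank of a site inside Alg9, which has the highest fold of the untreated peak list. Its strength there is therefore a description and no test was made of it. Peaks were assigned to a gene when their summit lay inside it or within 10 kb of either end. By this rule 9 of 11211 listed peaks belonged to the set, 2 of them untreated, 7 induced and 0 from IgG.

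ZFP410 binding was mapped by CUT&Tag, in which an antibody brings a transposase to a chromatin protein and the DNA next to it is cut and tagged. The cells, Lin−CD29+CD34+Sca1+, were isolated by sorting from brown fat of male C57BL/6 mice, with no allele or transgene named in the labels. The ZFP410 antibody was used on untreated cells and on cells given brown adipocyte differentiation medium for 3 days, called induced here, and control IgG was used on untreated cells. With 1 library in each of these groups, differences between them have no replicate check. How many animals or cultures stood behind a library was not given in the sources used here, and IgG on induced cells was not analysed here.

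N-glycans are built on the lipid dolichol in the membrane of the endoplasmic reticulum and are then moved to nascent proteins by the oligosaccharyltransferase. ALG proteins add the sugars in a fixed order. ALG1, ALG2 and ALG11 add mannoses on the cytosolic face, and ALG3, ALG9 and ALG12 add further mannoses in the lumen. ALG6 and ALG8 then add glucose, which ALG5 supplies in its dolichol-linked form. ZFP410 is known in other cells for its control of Chd4, the gene of the remodelling ATPase in the NuRD complex.

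In all 3256 untreated, 7475 induced and 480 IgG peaks were listed, with medians of 4, 7 and 4 fragments at the summit. Summit fragments are the caller's count at the highest point of the peak, recovered from the deposited fold and −log10 p. They are taken here to be sequenced pieces of DNA that cover that point. The genome background was 0.110, 0.246 and 0.0231 fragments, and enrichment is summit fragments over that background. Read counts were not used, and relative depth was estimated from the step between the local backgrounds of the peaks. This takes the caller's control to be alike in all libraries, which is not known. By this estimate the induced library exceeded the untreated library 2.01 times, and the latter exceeded IgG 7.02 times. The lowest listed numbers were 3, 4 and 2 fragments, so a weak site was more readily listed in the induced library. No expression data were at hand to check the cell type. Of the preadipocyte genes Pdgfra, Ly6a, Cd34 and Itgb1 and the blood cell genes Ptprc and Cd3e, 0 had a summit within 1 kb of an end in any list. Inside or within 10 kb, Pdgfra had 1 induced peak and Itgb1 had 1 untreated peak. Of all 21887 coding genes, 754 had their best untreated peak and 1605 their best induced peak within 1 kb of an end. A count of 0 at these few genes therefore says little about the cell type.

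Sequences are shown first for the gene starts that the peaks bear on, because the induced peaks of Alg2, Alg3 and Alg5 lay beside them and the lead site of Alg9 did not. They come from RefSeq on the assembly GRCm38.p6, which has the coordinates of mm10, and cover up to 250 bases before the start of the named gene, 5′ to 3′. Bases within another coding gene were left out. Capitals mark the bases covered by an induced peak. The entries are Alg9 (plus strand, chr9:50774975-50775224), Alg5 (plus strand, chr3:54735365-54735538) and Alg3 (minus strand, chr16:20610762-20611011). Eef1akmt4 (plus strand, chr16:20611351-20611600) is the neighbour of Alg3, and Sec61b (plus strand, chr4:47474411-47474660) that of Alg2.

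Alg9: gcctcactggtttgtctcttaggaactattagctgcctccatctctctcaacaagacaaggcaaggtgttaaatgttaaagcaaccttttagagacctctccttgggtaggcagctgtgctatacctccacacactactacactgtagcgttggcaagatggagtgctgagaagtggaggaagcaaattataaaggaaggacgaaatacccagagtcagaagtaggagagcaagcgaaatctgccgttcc
Alg5: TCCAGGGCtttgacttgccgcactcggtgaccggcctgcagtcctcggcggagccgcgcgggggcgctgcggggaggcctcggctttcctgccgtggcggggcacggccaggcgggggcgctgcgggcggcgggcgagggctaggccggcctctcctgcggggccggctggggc
Alg3: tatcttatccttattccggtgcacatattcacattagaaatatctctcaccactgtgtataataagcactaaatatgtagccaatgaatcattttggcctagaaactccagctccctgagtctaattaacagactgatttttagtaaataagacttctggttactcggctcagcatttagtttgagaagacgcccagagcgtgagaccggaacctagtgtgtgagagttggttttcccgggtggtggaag
Eef1akmt4: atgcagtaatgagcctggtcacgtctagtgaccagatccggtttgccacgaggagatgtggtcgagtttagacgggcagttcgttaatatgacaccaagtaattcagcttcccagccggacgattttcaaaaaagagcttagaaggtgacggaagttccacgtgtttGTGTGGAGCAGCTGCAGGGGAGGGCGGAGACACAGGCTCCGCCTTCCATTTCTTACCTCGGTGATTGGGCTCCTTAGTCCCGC
Sec61b: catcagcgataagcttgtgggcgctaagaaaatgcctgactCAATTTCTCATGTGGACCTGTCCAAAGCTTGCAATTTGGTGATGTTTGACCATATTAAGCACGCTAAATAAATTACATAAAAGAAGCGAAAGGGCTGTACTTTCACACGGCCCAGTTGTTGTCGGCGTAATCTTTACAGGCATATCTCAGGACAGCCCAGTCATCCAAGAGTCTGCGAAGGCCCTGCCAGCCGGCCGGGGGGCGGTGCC

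These stretches differed in base composition as well as in peak cover. Peaks covered 209 of 250 bases before Sec61b, 83 of 250 before Eef1akmt4 and 8 of 174 before Alg5. They covered 0 of 250 before Alg9 and 0 of 250 before Alg3. GC content was 79.9% before Alg5, 52.8% before Eef1akmt4, 50% before Sec61b, 46.8% before Alg9 and 41.6% before Alg3. The untreated and IgG lists covered no base of them.

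Of the 9 members 7 had an entry in the promoter table, which gives 250 bases before and 50 after each start. The letters CATCCCAT, which open the motif known for ZFP410, were sought on both strands. They stood in 0 of the 7 members and in 0.953% of all 32851 promoter windows. The CCAAT box, searched as CCAAT on both strands, was in the windows of Alg3, Alg9 and Alg12 and of Eef1akmt4, against 37.4% of all windows. The GC box, searched as GGGCGG on both strands, was in those of Alg1, Alg5, Alg6, Alg8 and Alg12 and of the neighbours Eef1akmt4, Exosc8 and Sec61b, and in 35.7% of all windows. Neither of these overlaps the letters sought for ZFP410. The sequence under the Alg9 site itself was not analysed here.

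Alg9, whose product adds mannose to the growing glycan in the lumen of the endoplasmic reticulum, carried the strongest site of the set. Alg9 lies on chromosome 9 from 50775225 to 50843639 and is the longest member, at 68.4 kb. The untreated peak, chr9:50814711-50815274, held 84 summit fragments. The induced peak, chr9:50814668-50815438, held 150. The IgG list had no peak within 5380 kb of the gene, although 17.6 fragments would have been expected in that library at the untreated enrichment. Both ZFP410 libraries were thus high at this place.

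The untreated and induced summits at this site were 68 bp apart, and the induced peak contained all 564 bases of the untreated one and was 771 bp wide. The untreated summit lay 39812 bp from the start of Alg9, at 58.2% of its length, and 28602 bp from its end. Whether the site is exonic or intronic was not analysed here. The nearest coding genes were Fdxacb1, 42367 bp below, and Ppp2r1b, which encodes a scaffold subunit of protein phosphatase 2A, 41859 bp above.

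By the authors' fold the Alg9 peak ranked 1 of 3256 untreated peaks, at 76.6, and 2 of 7475 induced peaks, at 121. It did not lead in fragments. In the untreated list 49 peaks held more than 84, but their local backgrounds were at least 15.8 fragments, with a median of 39.0. Their folds were at most 8.58, and 48 of them overlapped an IgG peak. The largest number returned was 2999, the upper limit of the search, so how many fragments that peak held is not known. The local background at Alg9 equalled the genome background in both libraries. Among untreated peaks with a local background of at most 2 times that of the genome, the next most fragments were 35.

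Enrichment at the Alg9 site was 764 in the untreated and 609 in the induced library. Their ratio was 0.797, or −0.33 on the log2 scale, and its 95% interval of counting error, 0.606 to 1.05, included 1. In the induced library 188 fragments would have been expected at equal enrichment, against the 150 found. A site picked for its untreated strength leans towards a lower ratio. Over 15 sites in both lists, with low local background and at least 20 untreated fragments, Alg9's among them, the ratio ran from 0.531 to 2.89 with a median of 0.975, and 11 lay above Alg9. Over all 1255 sites in both lists with low local background, weak ones included, the median ratio was 0.818.

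**Figure D1:**
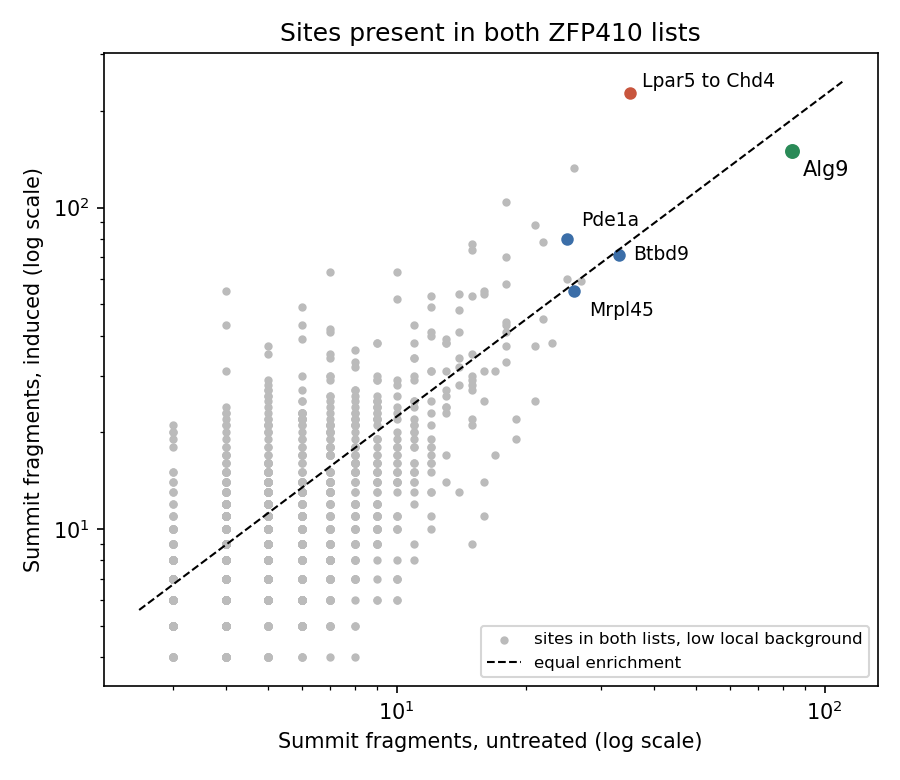
Summit fragments of sites present in both ZFP410 lists with low local background, untreated on the x axis and induced on the y axis, both logarithmic. Each point is 1 site, and the dashed line marks equal enrichment. Alg9, at 84 and 150 fragments, lies furthest to the right and just under the line, while the site between Lpar5 and Chd4 lies above it.

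The sites next in the untreated list showed how far Alg9 stood from them. A site between Lpar5 and Chd4 (chr6:125088495-125089395) ranked 2 at a fold of 32.4, with 35 untreated and 227 induced fragments. Its ratio was 2.89 (2.02 to 4.26). A site near Slc38a2, an amino acid transporter gene (chr15:96709448-96710025), ranked 3 with 33 and 73 fragments and a ratio of 0.987 (0.646 to 1.54). A site inside Btbd9 (chr17:30465300-30465731) ranked 4 with 33 and 71 and a ratio of 0.960 (0.627 to 1.5). Alg9 thus had more untreated fragments than each of these, and fewer induced ones than the site near Chd4. The difference between their ratios was not tested, as the sites were ranked by these values.

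Peaks at the Alg9 and Chd4 sites differed in width. The peak between Lpar5 and Chd4 was 901 bp wide untreated and 3716 bp induced, against 564 and 771 bp at Alg9. Among 16 untreated peaks of low local background with at least 20 fragments, widths ran from 239 to 2551 bp with a median of 599 bp, and 9 were wider than Alg9's. Over the whole untreated list, whose median width was 194 bp, 139 of 3256 peaks were wider than Alg9's.

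Among 724 other sites inside coding genes that were in both lists and free of IgG peaks, likeness to Alg9 was the Euclidean distance in log2 enrichment over the 2 ZFP410 libraries. The nearest was Btbd9, at 1.73. Pde1a, which encodes a calmodulin-dependent phosphodiesterase, came next at 1.97 with 25 untreated and 80 induced fragments. Mrpl45, a mitochondrial ribosomal protein gene, followed at 2.23 with 26 and 55. Each held fewer fragments than Alg9 in both libraries. For the untreated library this followed from the choice of Alg9 as the first site by fold.

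Around the lead site the other peaks held far fewer fragments than it did. Within 100 kb there were 5 untreated, 7 induced and 0 IgG peaks, the lead ones included. A site inside Ppp2r1b, 72.5 kb above, held 13 untreated and 27 induced fragments and was the strongest of the others. By fold its untreated peak ranked 73 of 3256 and its induced peak 101 of 7475. A site inside 2310030G06Rik, 73.4 kb below, held 5 and 9.

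**Figure D2:**
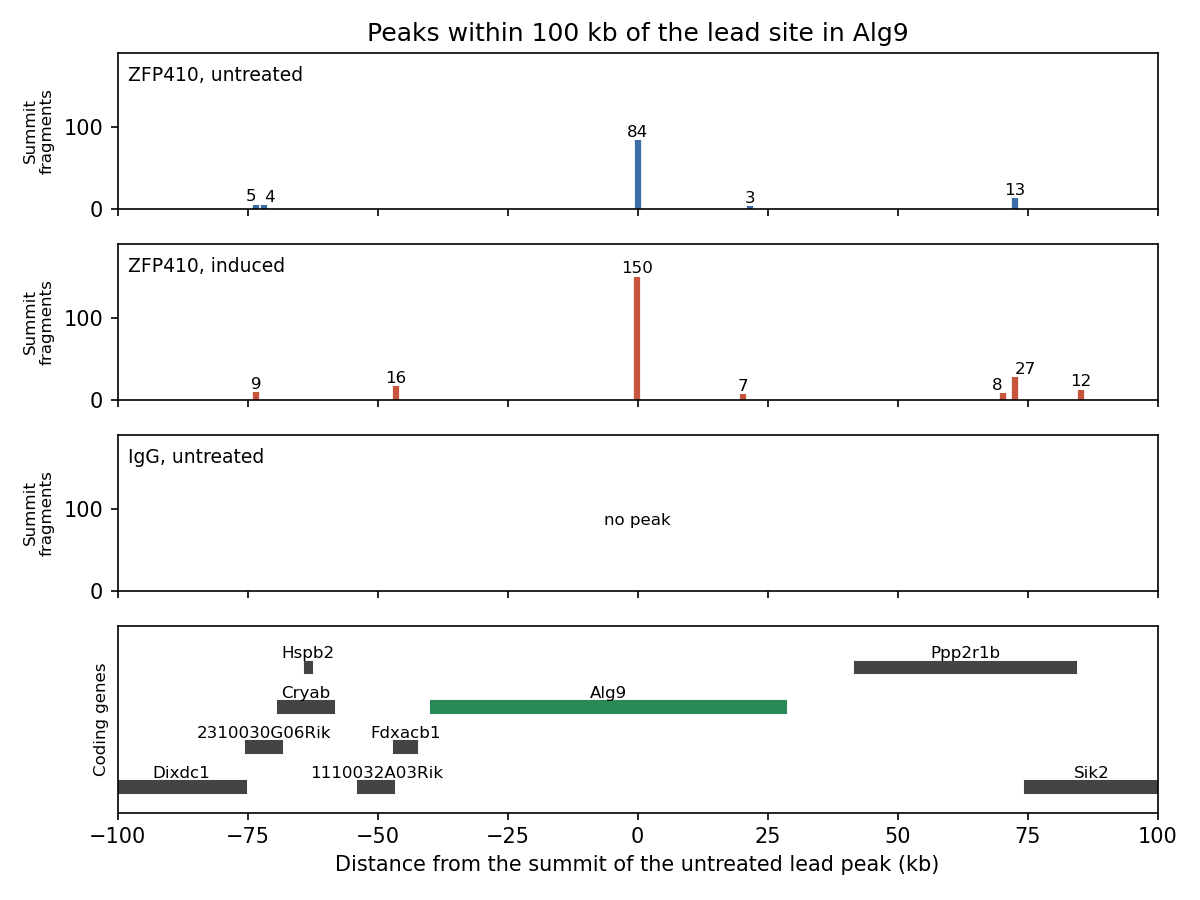
Summit fragments of the peaks within 100 kb of the lead site, by distance in kb from its untreated summit, for the 3 libraries, with coding genes in the bottom panel and Alg9 in green. Bars of 84 and 150 fragments stand at the lead site, all other bars reach at most 27, and the IgG panel is empty.

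Alg9 had 3 further peaks, none of them in both lists. An untreated peak near its end (chr9:50836571-50836801) held 3 fragments, the lowest number in the list, at a fold of 3.60 that 762 peaks shared. An induced peak at chr9:50835134-50835514 held 7 fragments, with its summit 1396 bp from that of the untreated one. At equal enrichment the first would have held 6.72 induced fragments and the second 3.12 untreated ones.

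The last of the 3, chr9:50768086-50768647, was induced only and held 16 fragments at a fold of 13.6. Its summit lay 6728 bp below Alg9 but inside Fdxacb1, 259 bp past the start of that gene, which 1 base separates from 1110032A03Rik. By position it belonged to these genes rather than to Alg9. The untreated library would have held 7.14 fragments there at equal enrichment, above the lowest listed number of 3. A peak taken for its induced listing leans towards too high an expected number, and the difference was not tested. At the start of Alg9 itself no peak was listed, and the nearest summit was this one in the induced library and one 32058 bp away in the untreated library.

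Alg2, Alg3 and Alg5 had peaks in the induced list alone, each within 1 kb of a gene end. All 3 genes had a peak beside the start of another gene. Alg2 (chromosome 4, 47469833 to 47474367), whose product adds mannoses on the cytosolic face, had 1 peak at chr4:47474452-47474664 with 9 fragments. Its summit was 99 bp above Alg2 and 195 bp below Sec61b, which encodes a subunit of the translocon, and 293 bases separate these genes. The local background there was 2.07 fragments, and the fold of 3.26 placed it 7373 of 7475. This was the weakest fold among the members. The table gave no strand for Alg2, so whether this end is its start was not determined.

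Alg3 (chromosome 16, 20605458 to 20610761), whose product adds a mannose in the lumen, had peaks of 6 fragments on either side of its start. The summit of one (chr16:20610513-20610734) lay 165 bp inside Alg3. The summit of the other (chr16:20611518-20611802) lay 800 bp outside, and 40 bp before the start of Eef1akmt4, a lysine methyltransferase gene. The starts of Alg3 and Eef1akmt4 face away from each other across 839 bases. Both peaks had a fold of 5.62, which 921 induced peaks shared and 3659 exceeded.

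Alg5 (chromosome 3, 54735539 to 54749795), which encodes the synthase of dolichol-linked glucose, had 1 peak at chr3:54735216-54735372 with 7 fragments and a fold of 6.42. Its summit was 193 bp before the start of Alg5 but 18 bp inside Exosc8, a gene of the RNA exosome that starts 174 bases away and runs the other way. Of the sequences above, only the first 8 bases of the Alg5 stretch lie under this peak.

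**Figure D3:**
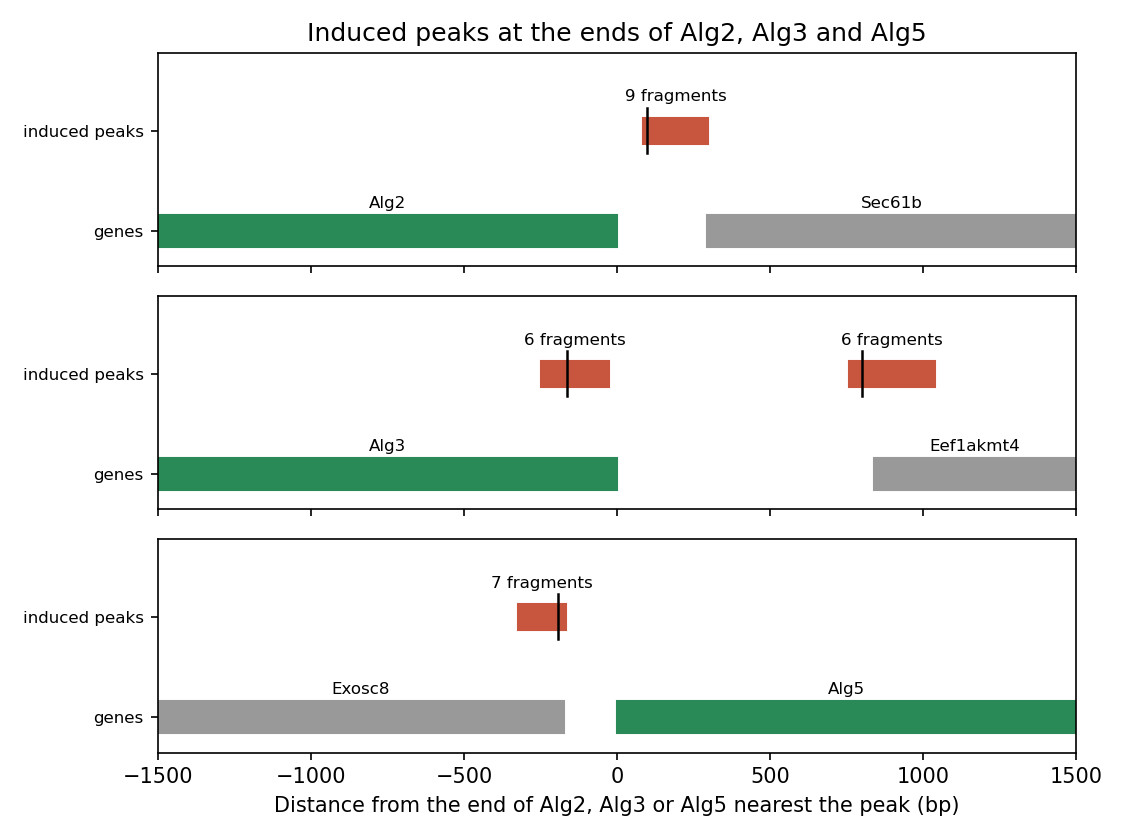
Induced peaks around the ends of Alg2, Alg3 and Alg5, by distance in bp from the end of that gene nearest the peak. Boxes in green are these 3 genes and grey boxes their neighbours, red boxes are peaks and black lines their summits. Each of the 4 peaks, with 6 to 9 fragments, touches or lies within 100 bp of a gene end.

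For these 4 peaks the lack of an untreated counterpart said little. At equal enrichment Alg2 would have held 4.02 untreated fragments, Alg5 3.12 and each Alg3 peak 2.68, around the lowest listed number of 3. The Alg2 number was scaled by the genome background and takes no account of the local background of 2.07 induced fragments there. The nearest untreated summits were 30779 bp from Alg2, 106795 bp from Alg3 and 617286 bp from Alg5. IgG would have held 0.562 to 0.843 fragments, under its lowest listed number of 2, so the lack of IgG peaks was not informative there.

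**Figure D4:**
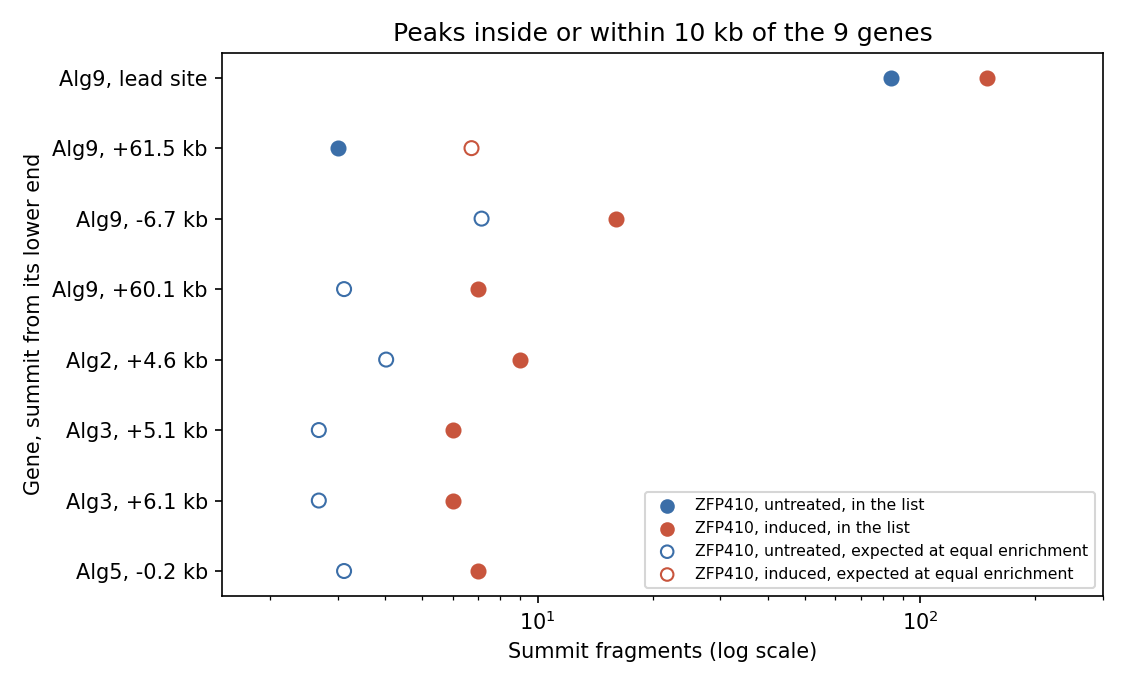
Summit fragments, on a log scale, at the 8 places with a peak inside or within 10 kb of the 9 genes, named by gene and distance of the summit from its lower end. Filled points were listed, and open points are the numbers expected in the other library at equal enrichment. The lead site holds 84 and 150 fragments, and all other listed points lie between 3 and 16.

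Alg1, Alg6, Alg8, Alg11 and Alg12 had no peak in any list. Alg12, whose product adds a mannose after ALG9 has acted, came nearest, with an induced summit of 29 fragments 44769 bp away and an untreated one of 8 fragments 124566 bp away. For Alg1, which adds the mannose that opens the chain, the nearest untreated and induced summits were 378104 and 417119 bp away. For Alg6 they were 1741369 and 281897 bp away, for Alg8 345944 and 348992 bp, and for Alg11 347659 and 419845 bp. The nearest ZFP410 summit to any of these 5 genes was thus the one 44769 bp from Alg12.

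A bound of 20 kb in place of 10 kb added no peak. The farthest summit inside 10 kb was the one 6728 bp from Alg9, the peak that a bound of 5 kb left out. The nearest outside were 30779 bp from Alg2, with 4 untreated and 17 induced fragments, and 32058 bp from Alg9, with 4 untreated fragments.

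In the untreated list 1 of 9 members had a peak, where 11.1% of all coding genes did. In the induced list 4 of 9 had one, or 44.4%, against 21.3% of all coding genes, and in the IgG list 0 of 9, against 0.690%. The untreated share was that of all genes, and Alg9, for which the set was chosen, makes up all of it. The induced share rests on 4 genes, and 1 of them is again Alg9, whose chosen site is in both lists. All 4 have a peak that is also inside or within 1 kb of a neighbouring gene. For Alg9 this is the peak in Fdxacb1 and not the lead site. Members had a median length of 14.1 kb, against 17.2 kb for all coding genes.

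The rest of the pathway was read from 3 lists with 55 genes. Untreated peaks stood at 8 of the 55 (14.5%) and induced peaks at 22 (40.0%), 6 had both, and 1 had an IgG peak. In the induced list the best peak lay within 1 kb of a gene end for 12 of the 22 (54.5%) and for 3 of the 4 members. For all coding genes with a peak by the same rule it was 34.4%. None of these shares was tested.

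Among 21 genes of dolichol and sugar donors 2 had untreated and 8 induced peaks. Alg14, which encodes a subunit of the enzyme that adds the second N-acetylglucosamine, had an induced peak of 12 fragments 173 bp inside an end. Dpm3, a subunit gene of dolichol-phosphate mannose synthase, had an induced peak of 8 fragments 840 bp outside it. Pmm2, a phosphomannomutase gene, had one of 7 fragments 50 bp inside an end, and Srd5a3, a gene of dolichol synthesis, had the same fold with a summit 1657 bp outside.

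Among 12 genes of the oligosaccharyltransferase 1 had an untreated and 3 an induced peak. Stt3b, a catalytic subunit gene, had both, 5 untreated fragments inside it and 10 induced ones 5879 bp outside, at places that did not overlap. Krtcap2 was counted for the peak near Dpm3, with the summit 6496 bp from it. Rpn2 had an induced peak of 6 fragments 288 bp inside an end.

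Among 22 genes of glucose and mannose trimming, lectin chaperones and branching 5 had untreated and 11 induced peaks. Canx, which encodes the lectin chaperone calnexin, had an induced peak of 9 fragments 118 bp outside one end and an untreated peak of 5 fragments 1481 bp outside the gene at another place. Man1c1, a mannosidase gene, had overlapping peaks inside it, with 7 fragments untreated and 8 induced and a ratio of 0.510 (0.162 to 1.65). Man1a, another mannosidase gene, had an induced peak of 8 fragments 32 bp inside an end, and it was the gene with an IgG peak, of 3 fragments, 4794 bp outside. Ngly1, which encodes a glycanase that strips glycans from misfolded proteins, had an induced peak of 8 fragments 5158 bp outside. The best peaks of these 55 genes held at most 12 fragments, against 84 and 150 at Alg9. As the Alg9 site was chosen for leading the untreated list by fold, this gap is a description and sets nothing apart within the pathway.

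**Figure D5:**
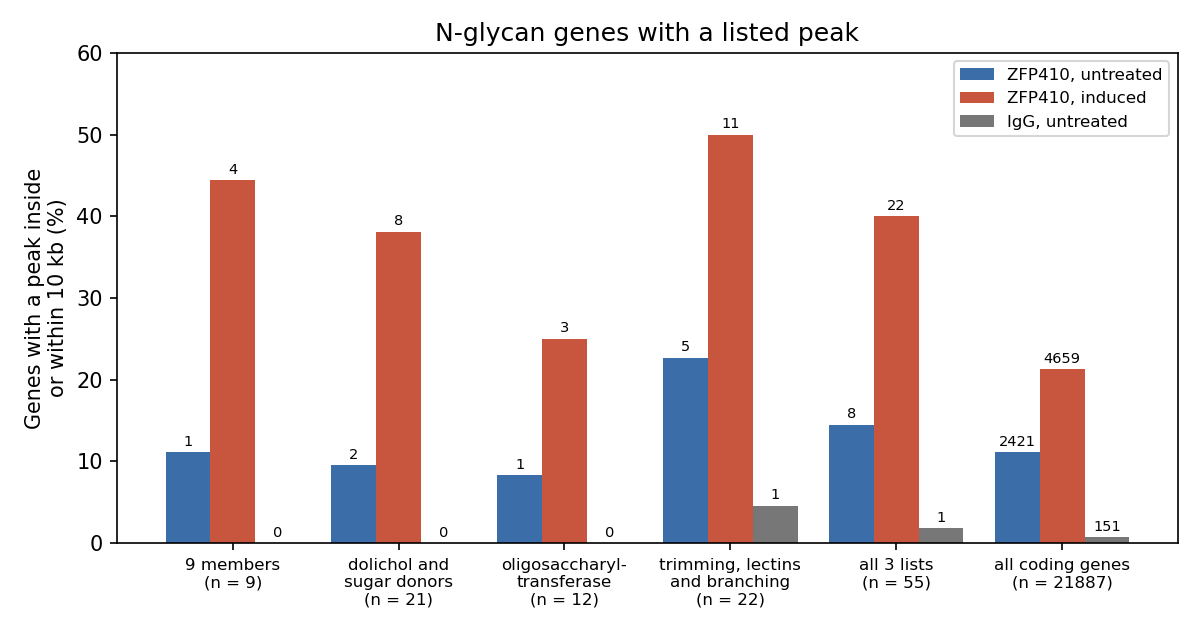
Percent of genes with a peak inside or within 10 kb in the untreated ZFP410 (blue), induced ZFP410 (red) and IgG (grey) lists, for the 9 members, the 3 pathway lists, these lists together and all coding genes. Numbers over the bars are genes. Induced bars stand at 44.4% for the members, 40.0% for the 3 lists together and 21.3% for all coding genes, and untreated bars at 11.1%, 14.5% and 11.1%.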

How the data were processed

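Bowtie2 2.2.6, Picard and MACS2 2.1.1 and the build mm10 are named in the submitters' processing notes. Each library has 1 deposited peak list, and its peak names carry a q threshold of 0.1. In them the authors give each peak a score, its fold over the local background, the −log10 of p and of q, and its summit. Not given in the sources used here are the caller's control and the handling of duplicates. Fold and −log10 p together returned whole summit fragments and the local background (gap under 0.001) for 3255 untreated, 7474 induced and 480 IgG peaks. The same step, tested on simulated peaks, returned 99.2%, 99.3% and 97.9% of 1000 each. Those peaks were made with the same formulas, so this shows only that the formulas can be inverted. The genome background is the lowest common value. Peaks were ranked by the authors' fold. Lists overlapped at 1 bp or more. Ratios have exact binomial 95% intervals (scipy 1.17.1), which cover counting error only.

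With 1 library per group no test was made. The members and lists were chosen with earlier results of these data known. Named were all members, their neighbours at a peak, up to 4 genes per pathway list by fold (with ties), untreated ranks 2 to 4 and the 3 sites most like Alg9's. Genes come from RefSeq GRCm38.p6, where 9 of 9 members and 55 of 55 pathway genes matched by symbol. Values of single genes that the rule also took are in part not reported here.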

Additional observations from a re-analysis of the deposited data

How the results depend on the processing

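No paired analysis was possible because each group had 1 library. Of 79 values under other settings 59 stayed within 1.5 times the reported count or inside the reported interval and 20 moved. The Alg9 ratio was 0.888 scaled by estimated depth and 0.974 by the median of shared peaks, and the site was shared under every overlap rule tried. Scaled by local background the ratio stayed at 0.797 by construction, as that equals the genome background there. Nor could the IgG counts of 0 at the members fall under stricter settings. At a −log10 q of at least 5, 1 untreated and 4 induced member peaks were left, at 1 and 2 members. Pathway genes then numbered 2, 14 and 0 (untreated, induced, IgG) and all coding genes 730, 2740 and 31. At a fold of at least 5, 1 untreated member peak, 5 untreated and 0 IgG pathway genes, and 1226 untreated and 47 IgG coding genes were left. With summits inside genes only, 3 induced member peaks at 2 members, 11 induced and 0 IgG pathway genes, and 1372 untreated and 2614 induced coding genes were left. These settings list fewer peaks or cover less sequence by construction. Depth limits the induced-only peaks of Alg2, Alg3 and Alg5, whose absence from the untreated list could not be told from its lower depth.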
